A study of Mus musculus with 8 samples.

Results

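The 10 genes described here, Slc2a1, Hk2, Pfkp, Pgk1, Eno1, Ldha, Pdk1, Bnip3, Car9 and Slc16a3, are classic hypoxia-induced genes of glucose use and acid export. They were taken by symbol from a table of 26667 genes, all 10 were found there and all 10 passed the filter on low counts. RNA was extracted from formalin-fixed, paraffin-embedded sections of 8 undifferentiated pleomorphic sarcomas (UPS), a soft tissue sarcoma that resembles no normal tissue, grown in the hind limb muscle of mice of mixed 129/C57BL/6 background. The 4 KP tumours (KP 5 to KP 8, labelled wild type) carried Trp53 fl/fl. The 4 KPH2 tumours (KPH2 1 to KPH2 4, labelled Epas1 -/-) carried the same alleles as KP and Epas1 fl/fl, so that loss of HIF-2α was the intended difference between the groups. Mice of both sexes, at least 8 weeks old, had received adenovirus expressing Cre in the hind limb, and host cells in the sections that took up no virus keep their unrecombined alleles. The study left out 1 knockout library as a technical outlier. KPH2 1 is the tumour missing from the smaller of its deposited normalized tables, so the groups compared are KP 5 to KP 8 and KPH2 2 to KPH2 4, with KPH2 1 given apart.

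Glycolysis breaks glucose down to pyruvate without oxygen, and hypoxic cells turn pyruvate into lactate in place of burning it in mitochondria. Hypoxia-inducible factors (HIFs) are transcription factors made of an oxygen-sensitive α subunit, HIF-1α or HIF-2α, and the stable partner ARNT. They bind short DNA motifs, called hypoxia response elements, near their targets. In many cell types the glycolytic genes respond mainly to HIF-1α, while other targets respond to HIF-2α or to both. Whether this set of genes differed in level between tumours with and without HIF-2α is the question addressed by the comparison.

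The core of the hypoxia response element was looked for in the 250 bases before the RefSeq start site nearest to the 5′ end of each gene (GRCm38.p6). The start used lay 3530 bases inside the gene for Ldha, 583 for Slc16a3, 289 for Pfkp and 9 for Pdk1, and at the 5′ end of the gene for the other 6. The 2 cores searched were ACGTG and GCGTG, on both strands, and the palindrome CACGTG counts as 2 overlapping matches. All 10 genes had a window and all 10 held at least 1 match to either core, against 38.6% of 32851 windows of the same length over all genes. ACGTG was found for 7 of the 10 genes, against 16.6% of all windows. The share over all genes counts each start, and counted so the 10 genes had 14 windows, of which 13 held either core and 7 held ACGTG. For 5 genes the stretch from 15 bases before the first match to 15 bases after the last is shown. They were chosen among the 6 genes for which that whole stretch lies outside annotated exons. Eno1, the sixth, held 1 match and is not shown. Ldha and Pdk1 had 2 of the 3 smallest p-values below, Bnip3 and Hk2 varied widely between tumours of the same genotype, and Pgk1 holds a pair of closely spaced matches. Each is written 5′ to 3′ on the strand of its gene, with the matches in capitals.
Ldha, plus strand, chr7:46845644-46845789: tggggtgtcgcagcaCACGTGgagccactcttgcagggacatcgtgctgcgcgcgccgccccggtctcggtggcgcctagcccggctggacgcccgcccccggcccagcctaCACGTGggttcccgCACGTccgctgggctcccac
Pdk1, plus strand, chr2:71873131-71873165: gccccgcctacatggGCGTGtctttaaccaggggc
Pgk1, plus strand, chrX:106186935-106186988: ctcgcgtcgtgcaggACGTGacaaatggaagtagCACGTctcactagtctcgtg
Bnip3, minus strand, chr7:138909522-138909638: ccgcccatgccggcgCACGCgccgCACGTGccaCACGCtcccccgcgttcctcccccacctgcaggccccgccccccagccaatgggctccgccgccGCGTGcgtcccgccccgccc
Hk2, minus strand, chr6:82774487-82774695: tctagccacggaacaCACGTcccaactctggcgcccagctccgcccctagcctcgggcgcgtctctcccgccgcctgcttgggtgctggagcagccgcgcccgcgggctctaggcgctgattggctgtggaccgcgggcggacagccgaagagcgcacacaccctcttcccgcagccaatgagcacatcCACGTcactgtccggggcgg
Ldha and Bnip3 each had 5 matches, the most of the 10 genes, Hk2 and Pgk1 had 2, and Pdk1 had 1, of the GCGTG kind. A match describes the letters in the window and does not show that a HIF was bound there in these tumours.

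Total counts ran from 6463221 to 13155510 per tumour. Epas1, the deleted gene, was counted at 59.6 to 85.5 CPM (reads counted per 1e+06 after TMM scaling) in KP tumours, at 37.8 to 54.2 CPM in KPH2 2 to KPH2 4 and at 32.0 CPM in KPH2 1 (log2 fold change −0.81 with an edgeR adjusted p of 0.0742). Counts of Rn45s, the ribosomal RNA precursor, made up 1.08 to 2.79% of the total in KP tumours, and 3.58 to 9.83% in KPH2 2 to KPH2 4, highest in KPH2 2, with 6.71% in KPH2 1. The summed level of 25 skeletal muscle markers ran from 1790 to 3353 CPM in KP tumours, and was 12397, 19297 and 4189 CPM in KPH2 2, 3 and 4 and 1472 CPM in KPH2 1. Each of the 25 had a positive log2 fold change (median 2.08), 24 had an unadjusted p under 0.05 (17.8% of all genes) and 1 passed an adjusted p of 0.05 (1.96% of all genes, edgeR). The groups did not overlap for 9 of the 25 (16.8% of all genes), and no muscle marker was at 0 in every tumour. The mesenchymal markers looked for in a sarcoma were all detected, at 21568 to 48186 summed CPM in KP and 22929 to 33653 CPM in KPH2 2 to KPH2 4. The log2 fold change was negative for 10 of these 12, of which Pdgfra, a growth factor receptor of mesenchymal cells, fell by 2.02 on the log2 scale (edgeR adjusted p = 0.0183). With all 8 tumours 0 of the 12 passed, where only 0.00675% of all genes did so. All 12 macrophage markers and 10 of 12 endothelial markers had a negative log2 fold change, and 0 of either list passed the adjusted p in edgeR, with 5 and 6 at an unadjusted p under 0.05 (17.8% of all genes) and with groups apart for 2 and 5 (16.8%). In bulk tissue, fewer cells of a type and less RNA per cell cannot be told apart.

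The 10 genes did not separate the genotypes. In edgeR (quasi-likelihood test, Benjamini-Hochberg adjustment over 14867 genes) 0 of the 10 passed 0.05, where 1.96% of all genes passed and 1.24% passed as higher in KPH2. With KPH2 1 added, 0 of the 10 passed and 3 had an unadjusted p under 0.05, where 0.00675% and 14.7% of all genes did so. DESeq2 on the same counts also called 0 of the 10, against 7.2% of the genes with an adjusted p, and 4 had an unadjusted p under 0.05 there, against 13.6% of genes. With edgeR 3 of the 10 (Ldha, Pdk1 and Car9) had an unadjusted p under 0.05, all higher in KPH2 tumours, where 17.8% of all genes did so in either direction and 8.50% upward. That count was 0 without KP 8 (2455 of 14592 genes tested in that fit) or without KPH2 2 (2060 of 15187 genes). It was 1 without KP 5 (2879 of 14554 genes) or KP 6 (2233 of 14889 genes) and 2 without KPH2 4 (2093 of 15487 genes). Without KPH2 3 it was 3 (2282 of 15317 genes), and without KP 7 it was 5 (2493 of 14960 genes). The values of KP and KPH2 2 to KPH2 4 overlapped for all 10 genes, although the groups were apart for 16.8% of the genes tested, and for 9.01% with KPH2 higher. With KPH2 1 added, 0 of the 10 were apart, against 8.15% of genes (3.75% with KPH2 higher). The log2 fold change was positive for 8 of the 10, with a median of 0.35, against 48.0% of all genes and a median of −0.02. That median was 0.10 without KPH2 2, 0.63 without KP 7 and 0.59 without KPH2 3. It was also positive for 8 with KPH2 1 added (median 0.32), against 50.9%. Levels also differed between tumours of one genotype, as set out gene by gene below. The highest KP tumour stood 5.93-fold above the lowest for Slc2a1, but 1.43-fold for Ldha. The standard error was above that of the median gene for 8 of the 10 (median 0.37, against 0.25 for all genes). Ldha (0.21) and Eno1 (0.24) lay below it.

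**Figure D1:**
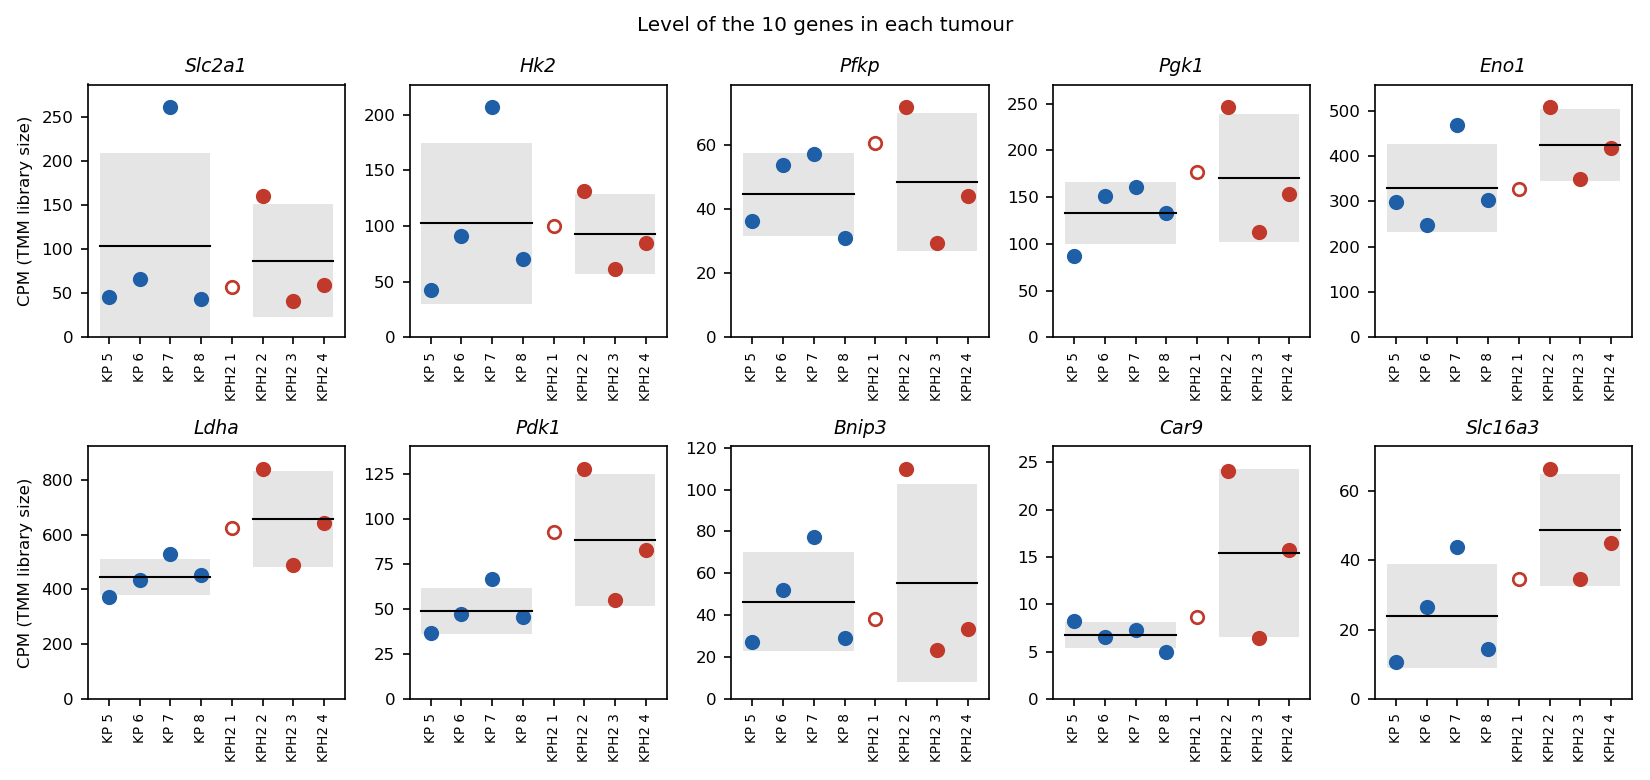
Level of each of the 10 genes in the 8 tumours, in CPM of the TMM library size on axes that start at 0. Filled points are KP (blue) and KPH2 2 to 4 (red), the open point is KPH2 1, and lines and grey bands are the mean and SD of KP (n = 4) and KPH2 2 to 4 (n = 3). KP 7 was the highest KP tumour for 9 genes and KPH2 2 the highest of KPH2 2 to 4 for all 10.

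Compared per kilobase of exon, Ldha was the most abundant of the 10 transcripts, at 235.4 ± 34.2 CPM per kb in the KP tumours (SD, n = 4), where KPH2 2 to KPH2 4 held 346.7 ± 92.9 CPM per kb (SD, n = 3). Eno1 followed at 129 ± 37.8 and 167 ± 31.0 CPM per kb (SD, n = 4 and 3), and Pgk1 at 72.9 ± 18.0 and 93.5 ± 37.4 CPM per kb (SD, n = 4 and 3). Ldha stood above Eno1, Eno1 above Pgk1 and Pgk1 above Slc2a1 in each of the 8 tumours. The order below them was less clear, with Slc2a1 above Bnip3 in 2 of 8 tumours, Hk2 above Pdk1 in 5 and Pdk1 above Pfkp in 5, although Bnip3 stood above Hk2 in 8, Pfkp above Slc16a3 in 7 and Slc16a3 above Car9 in 7. Slc16a3 (7.75 CPM per kb over the 7 tumours) and Car9 (5.18 CPM per kb) were the least abundant.

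Slc2a1 (chromosome 4, 119108745 to 119137330) encodes GLUT1, the transporter that brings glucose into the cell. KP 5 to KP 8 held 45.4, 66.0, 261 and 43.9 CPM, KPH2 2 to KPH2 4 held 160, 40.7 and 59.6 CPM, and KPH2 1 held 57.2 CPM. KP 7 and KPH2 2 stood far above the other 6 tumours, which lay close together whatever their genotype. Its log2 fold change was −0.28 (SE 0.74, edgeR adjusted p = 0.887), and it turned to 0.73 without KP 7 and to 0.06 without KPH2 3.

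Hk2 (chromosome 6, 82725025 to 82774454) encodes hexokinase 2, which phosphorylates glucose and keeps it in the cell. Its level was 42.4, 90.7, 206.5 and 70.0 CPM in KP 5 to KP 8, 131.8, 61.2 and 84.8 CPM in KPH2 2 to KPH2 4, and 99.8 CPM in KPH2 1. Both the highest and the lowest value belonged to KP tumours, a 4.86-fold range within one genotype. A log2 fold change of −0.16 was found (SE 0.52, edgeR adjusted p = 0.91), which was 0.44 without KP 7 and 0.06 without KPH2 3.

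Pfkp (chromosome 13, 6579874 to 6649060) encodes the platelet form of phosphofructokinase, which catalyses the committed step of glycolysis. It was counted at 36.3, 53.8, 57.0 and 30.9 CPM in KP 5 to KP 8 and at 71.6, 29.5 and 44.0 CPM in KPH2 2 to KPH2 4, with 60.5 CPM in KPH2 1. The lowest and the highest of the 8 tumours were both KPH2. KPH2 over KP, the log2 fold change was 0.10 (SE 0.33, edgeR adjusted p = 0.912), −0.28 without KPH2 2 and −0.05 without KP 8.

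Pgk1 (chromosome X, 106187100 to 106203699), which encodes the first ATP-forming enzyme of the pathway, stood at 87.0, 151, 161 and 133 CPM in KP 5 to KP 8 and at 246, 113 and 153 CPM in KPH2 2 to KPH2 4. KPH2 1, at 177 CPM, lay above every KP tumour, as did KPH2 2. The log2 fold change was 0.34 (SE 0.30, edgeR adjusted p = 0.605), and without KPH2 2 it was −0.0064.

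Eno1 (chromosome 4, 150236708 to 150248879) encodes enolase 1, the next enzyme but one. It was counted at 298, 247, 468 and 304 CPM in KP 5 to KP 8, at 507, 349 and 418 CPM in KPH2 2 to KPH2 4 and at 327 CPM in KPH2 1. KP 7 was the only KP tumour inside the range of KPH2 2 to KPH2 4, and the other 3 lay below it. The log2 fold change was 0.35 (SE 0.24, edgeR adjusted p = 0.5). The near-identical gene Gm5506 (Eno1b) had 0 to 4 counts per tumour, and reads that fit both places equally are lost when unique alignments are counted. The same limit applies to Ldha and Pgk1, for which the annotation names 2 and 3 processed pseudogenes.

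Ldha (chromosome 7, 46842274 to 46855627) encodes the A subunit of lactate dehydrogenase, which turns pyruvate into lactate. Its level was 370, 435, 528 and 451 CPM in KP 5 to KP 8 and 840, 489 and 643 CPM in KPH2 2 to KPH2 4, with 624 CPM in KPH2 1. All KPH2 tumours but KPH2 3 lay above every KP tumour, and KPH2 3 lay above every KP tumour but KP 7. KP tumours averaged 446 ± 64.9 CPM (SD, n = 4), where KPH2 2 to KPH2 4 averaged 657 ± 176 CPM (SD, n = 3). Its log2 fold change of 0.54 (SE 0.21) was the most precisely estimated of the 10, with an unadjusted p of 0.0324, with an adjusted p of 0.229 from edgeR. With all 8 tumours it was 0.54 (SE 0.19, edgeR adjusted p = 0.263).

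Pdk1 (chromosome 2, 71873215 to 71903858) encodes pyruvate dehydrogenase kinase 1, which holds pyruvate back from being burnt in the mitochondria. It was counted at 36.5, 47.0, 66.8 and 45.7 CPM in KP 5 to KP 8, at 128, 54.8 and 82.6 CPM in KPH2 2 to KPH2 4, and at 92.7 CPM in KPH2 1. The pattern was that of Ldha, with KP 7 above KPH2 3 as the only crossing of the groups. Between the groups the log2 fold change was 0.84 (SE 0.31, unadjusted p = 0.0242, edgeR adjusted p = 0.202). It was 0.86 over all 8 tumours (SE 0.27, edgeR adjusted p = 0.22) and fell to 0.48 without KPH2 2.

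Slc16a3 (chromosome 11, 120948484 to 120959000) encodes MCT4, the carrier through which glycolytic cells release lactate. KP tumours held 10.5, 26.4, 43.9 and 14.4 CPM, KPH2 2 to KPH2 4 held 66.4, 34.5 and 45.1 CPM, and KPH2 1 held 34.5 CPM. Again KP 7 alone reached into the KPH2 range. KPH2 tumours differed from KP by a log2 fold change of 1.02 (SE 0.48, unadjusted p = 0.0655, edgeR adjusted p = 0.316), 1.5 without KP 7 and 0.74 without KPH2 2.

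Car9 (chromosome 4, 43507026 to 43513729) encodes carbonic anhydrase 9, a surface enzyme that helps hypoxic cells keep their internal pH and a common histological marker of hypoxia. It was the least abundant of the 10, at 8.22, 6.57, 7.29 and 4.97 CPM in KP 5 to KP 8, at 24.1, 6.42 and 15.7 CPM in KPH2 2 to KPH2 4, and at 8.70 CPM in KPH2 1. KPH2 2 and KPH2 4 were high and KPH2 3 lay among the KP tumours. Unlike the other 9 genes, Car9 was not highest in KP 7 among KP tumours. Its log2 fold change of 1.17 (SE 0.41) was the largest of the 10, with an unadjusted p of 0.0191 and an adjusted p of 0.184 from edgeR. Without KPH2 2 it was 0.71, and without KPH2 3 it was 1.54 with an adjusted p of 0.0590 (edgeR), the smallest adjusted p of any of the 10 under any setting tried. The epithelial keratin Krt8 was also high in KPH2 2 and KPH2 4, at 267 and 282 CPM, against 6.93 CPM in KPH2 3 and 0.70 to 2.02 CPM in KP tumours. The 10 skin and epithelial markers summed to 12.02 to 23.0 CPM in KP and to 483, 57.5 and 528 CPM in KPH2 2, 3 and 4. Of the 6 tested, 5 had a positive log2 fold change (48.0% of all genes), of which 2 (Krt8 and Krt18) rose in edgeR over the 7 tumours (1.24% of all genes). With all 8 tumours 0 passed, where only 0.00675% of all genes did so. Dsp, the gene of the desmosome protein desmoplakin, went the other way, at 2.60 to 9.94 CPM in KP and 0.457, 0.903 and 1.57 CPM in KPH2 2, 3 and 4 (log2 fold change −2.49, edgeR adjusted p = 0.0832), and Krt5, Krt14 and Krt1 were at 0 in every tumour. Their part in the level of Car9 was not tested.

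Bnip3 (chromosome 7, 138890836 to 138909506) encodes a mitochondrial protein that marks mitochondria for removal, through which hypoxic cells use less oxygen. It was counted at 27.1, 52.0, 77.6 and 28.9 CPM in KP 5 to KP 8, at 110, 23.4 and 33.3 CPM in KPH2 2 to KPH2 4, and at 38.4 CPM in KPH2 1. As for Slc2a1, the high tumours were KP 7 and KPH2 2, and the range among KPH2 2 to KPH2 4 was 4.7-fold. A log2 fold change of 0.24 (SE 0.58, edgeR adjusted p = 0.876) turned to −0.72 without KPH2 2.

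**Figure D2:**
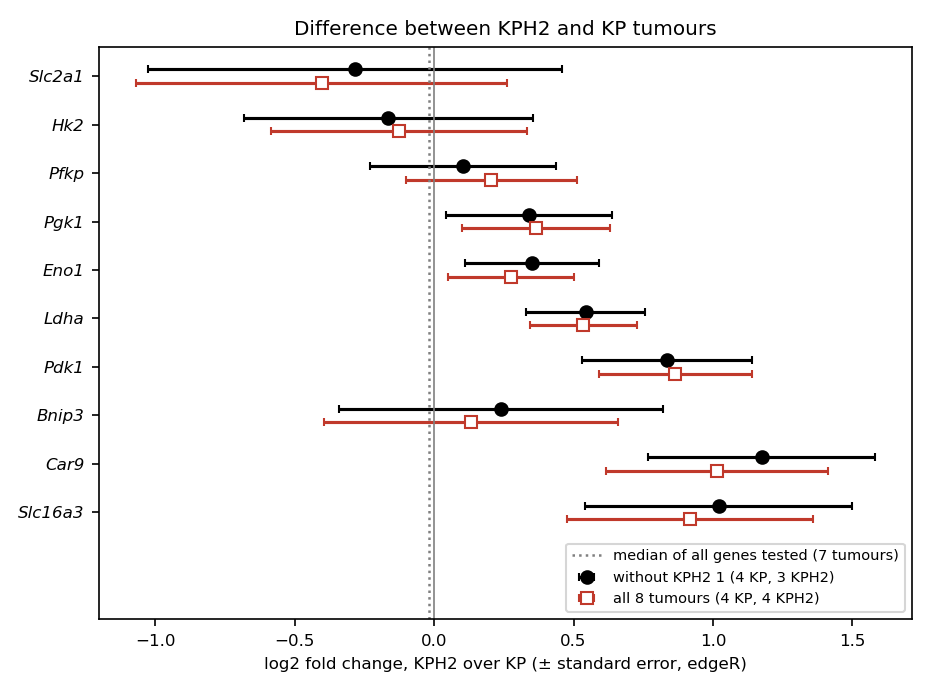
Log2 fold change of KPH2 over KP for each gene with its standard error from edgeR, over 7 tumours (black) and over all 8 (red, open). Slc2a1 and Hk2 lay below 0 and Car9 and Slc16a3 near 1. The standard error was widest for Slc2a1 at 0.74 and narrowest for Ldha at 0.21.

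The genes thus fell into those that varied from tumour to tumour and those that also leaned toward KPH2. In Slc2a1, Hk2, Pfkp, Pgk1 and Bnip3 the sign of the log2 fold change depended on single tumours. In Eno1, Ldha, Pdk1, Car9 and Slc16a3 it was positive whichever of the 7 tumours was left out, in ranges of 0.21 to 0.58, 0.34 to 0.72, 0.48 to 1.09, 0.71 to 1.54 and 0.74 to 1.5. These 5 shared no test result past the adjusted p, and this grouping was made after their values were seen. KPH2 2, the tumour with the highest level of all 10 among KPH2 2 to KPH2 4, was also the tumour with the most Rn45s (9.83%) and Lars2 (4.68%) of all 8. Among KP tumours, KP 7 had the most of both (2.79% and 1.04%), and KP 6, next to KP 7 in mean log2 CPM over the 10 genes, had the least Rn45s (1.08%). The part of these RNAs in the high levels of KP 7 and KPH2 2 was not tested, and between the groups Rn45s and genotype cannot be told apart. With the RNAs Rn45s, Lars2 and Rn7sk left out of the counts, 0 of the 10 genes passed the adjusted p (smallest 0.187), against 1.94% of all genes, and 3 had an unadjusted p under 0.05, against 17.7% (edgeR).

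**Figure D3:**
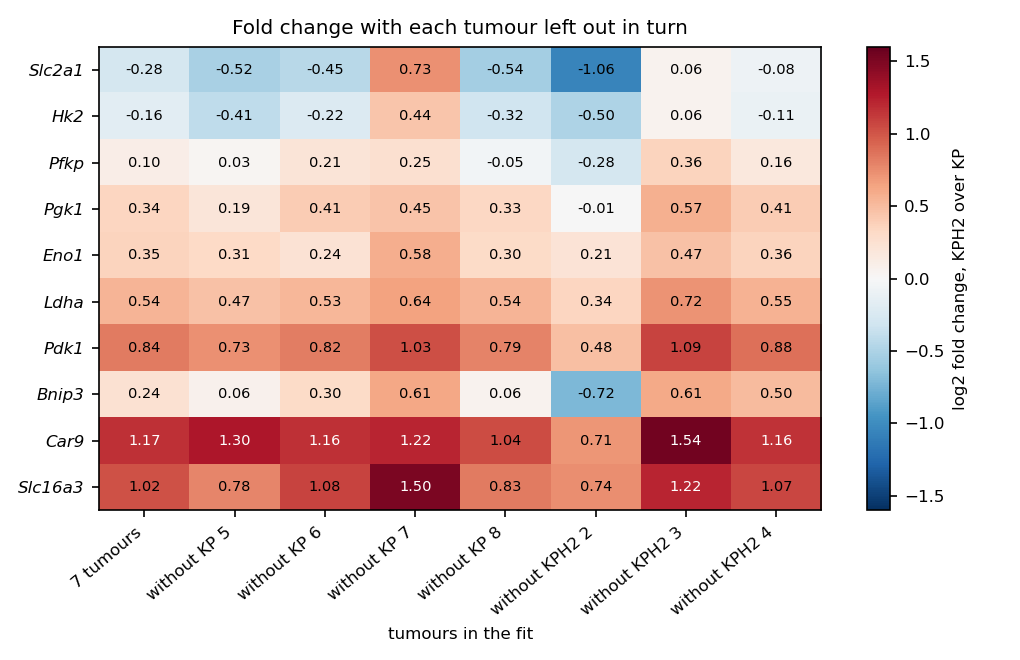
Log2 fold change of KPH2 over KP from edgeR (numbers and colour) for each gene over the 7 tumours and with each tumour left out in turn. Without KP 7 all 10 values were positive, and without KPH2 2 there were 5 negative values.

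Across the 8 tumours the levels of the 10 genes varied together. All 45 pairs of genes had a positive Pearson r of log2 CPM over the 8 tumours, from 0.29 to 0.99 with a median of 0.72, given as a description since libraries, depth and genotype are shared by all pairs. KP 7 was the highest KP tumour for 9 of the 10 genes, against 24.0% of all genes tested, and KPH2 2 was the highest of KPH2 2 to KPH2 4 for 10 of 10, against 36.0%. Both held for 9 of the 10 genes and for 8.0% of all genes. KP 5 was the lowest of the 8 tumours for 5 genes and KPH2 3 for 3. KPH2 1, given apart from the comparison, exceeded every KP tumour for 5 of the 10 genes, lay inside the KP range for the other 5 and below it for none. Its mean log2 CPM over the 10 genes was 6.36, beside 5.58 to 6.75 in KP and 7.16, 5.86 and 6.40 in KPH2 2, 3 and 4.

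Among the 22 other hypoxia-induced genes examined, 12 had a positive and 10 a negative log2 fold change (median 0.04), and 0 passed the adjusted p or had an unadjusted p under 0.05 in edgeR, against 1.96% and 17.8% of all genes. The highest KP tumour was KP 7 for 17 of the 22, the highest of KPH2 2 to KPH2 4 was KPH2 2 for 18, and both held for 15. Their mean log2 CPM was 5.83 in KP 7 and 5.82 in KPH2 2, and 4.51 to 5.2 in the other 6 tumours. The same tumour of each genotype was thus high for both lists. Of the 4 HIF subunit genes, 3 were highest in KP 7 among KP tumours and 3 in KPH2 2 among KPH2 2 to KPH2 4, against 24.0% and 36.0% of all genes. Hif1a, the gene of HIF-1α, had its highest KP value in KP 6 rather than KP 7, and its highest value among KPH2 2 to KPH2 4 in KPH2 2. It was counted at 214, 510, 463 and 415 CPM in KP 5 to KP 8, at 406, 249 and 355 CPM in KPH2 2 to KPH2 4 and at 268 CPM in KPH2 1. Its log2 fold change was −0.27 (SE 0.31, edgeR adjusted p = 0.705). Arnt (−0.22, edgeR adjusted p = 0.608) and Arnt2 (1.02, edgeR adjusted p = 0.31) did not pass the same test either.

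**Figure D4:**
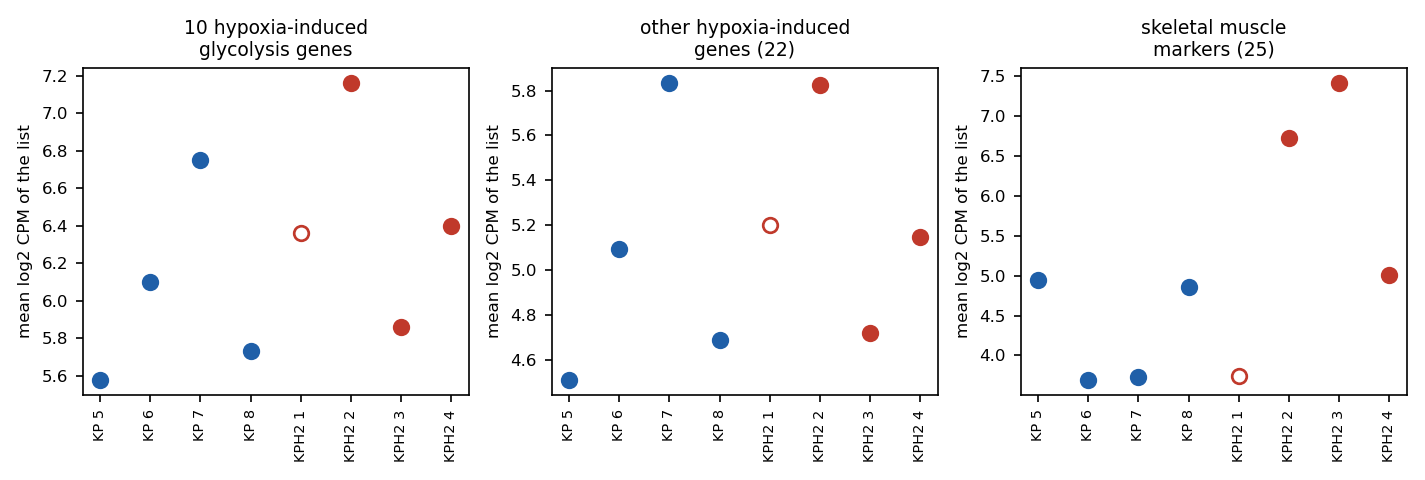
Mean log2 CPM per tumour of the 10 genes, of 22 other hypoxia-induced genes and of 25 skeletal muscle markers (KP blue, KPH2 red, KPH2 1 open). KP 7 and KPH2 2 were the 2 highest tumours in the first and second panels, while KPH2 3 was highest in the muscle panel, at 7.41, and low in the first, at 5.86.

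The genes whose level over the 8 tumours was most like the mean of the 10 included further steps of glucose use. The 8 with the highest Pearson r (0.92 to 0.97 over 8 tumours, and 0.80 to 0.91 over 6, without KP 5 and KPH2 2) were Lonrf1, Pfkl, Chka, Ddit4, Mt1, Pgam1, Gys1 and Tgif1. Pfkl and Pgam1 encode the liver form of phosphofructokinase and a phosphoglycerate mutase, Gys1 a glycogen synthase, Ddit4 an inhibitor of mTORC1 induced by hypoxia, Mt1 a metallothionein and Chka a choline kinase. Pfkl was counted at 42.4, 59.0, 93.9 and 55.8 CPM in KP 5 to KP 8 and at 133, 53.8 and 73.6 CPM in KPH2 2 to KPH2 4. Its log2 fold change was 0.45 (edgeR adjusted p = 0.566), with the same 2 tumours at the top. These 8 were picked for their likeness out of 14795 genes, so that a high r was bound to occur.

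Of 26 other genes of glycolysis and pyruvate use, 23 had a positive and 3 a negative log2 fold change (median 0.39), 6 had an unadjusted p under 0.05 (17.8% of all genes) and Eno3 was the only one past the adjusted p (1.96% of all genes). Eno3, the muscle enolase, rose from 12.7 to 27.5 CPM in KP to 190, 197 and 108 CPM in KPH2 2, 3 and 4 (log2 fold change 2.98, SE 0.31, edgeR adjusted p = 0.00922), with KPH2 1 at 16.5 CPM. With KPH2 1 in the fit it did not pass (log2 fold change 2.62, edgeR adjusted p = 0.159), where only 0.00675% of all genes did so. With Eno3, the groups did not overlap for 4 of the 26 genes (15.4%), against 16.8% of all genes. All 4 were higher in KPH2, where 9.01% of all genes were apart in that direction. The others were Pdk4, a kinase of pyruvate dehydrogenase, and Pdha1 and Pdhb, 2 subunits of that enzyme, which had log2 fold changes of 1.83, 0.26 and 0.38 (adjusted p = 0.0865, 0.339 and 0.209 from edgeR). Skeletal muscle markers, at the sums given above, were higher in the same 3 tumours as Eno3, and their part in its level was not tested. Of the 2 tumours with the most muscle marker RNA, KPH2 3 was the lowest of the 8 for 3 of the 10 genes and KPH2 2 the highest for 8. With a muscle marker score as a covariate in the edgeR fit all 10 log2 fold changes were positive, with a median of 1.01, where 48.0% of all genes had a positive value. The mean log2 CPM of the muscle markers ran from 3.69 to 4.95 in KP and from 5.01 to 7.41 in KPH2 2 to KPH2 4. Because these ranges do not overlap, that fit can hardly tell genotype and muscle score apart. Standard errors were wider for all 10 genes, for example 1.67 for Slc2a1 and 1.27 for Bnip3, against 0.74 and 0.58 without the score. In that fit 0 of the 10 passed the adjusted p (smallest 0.562), where 0.0202% of all genes passed, and 2 had an unadjusted p under 0.05, against 8.31%.

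For 9 of the genes (all but Pgk1) a ratio to a paralogue was formed within each tumour from CPM per kb of exon, with 2 paralogues for Pfkp. The groups overlapped for 9 of the 10 pairs. Over all pairs of genes tested the ratio was apart for 18.4%, so that 1 of 10 is no more than the background. The exception was Eno1 over Eno3, at 6.29 to 22.7 in KP, 1.09 to 2.37 in KPH2 2 to KPH2 4 and 12.2 in KPH2 1. Ldha exceeded Ldhb, the heart type subunit, by 24.5 to 71.2 times in KP and 37.0 to 54.9 times in KPH2 2 to KPH2 4, so that Ldha was the more abundant in both genotypes. Hk2 stood at 0.35 to 1.5 times Hk1 in KP and at 0.58 to 0.67 times in KPH2 2 to KPH2 4. Slc16a3 was below Slc16a1, which encodes the carrier MCT1, in every tumour, at 0.04 to 0.21 times in KP, 0.20 to 0.24 times in KPH2 2 to KPH2 4 and 0.04 times in KPH2 1. Car9 exceeded Car12, another surface carbonic anhydrase, in 7 tumours, while in KPH2 1 the ratio was 0.37.

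**Figure D5:**
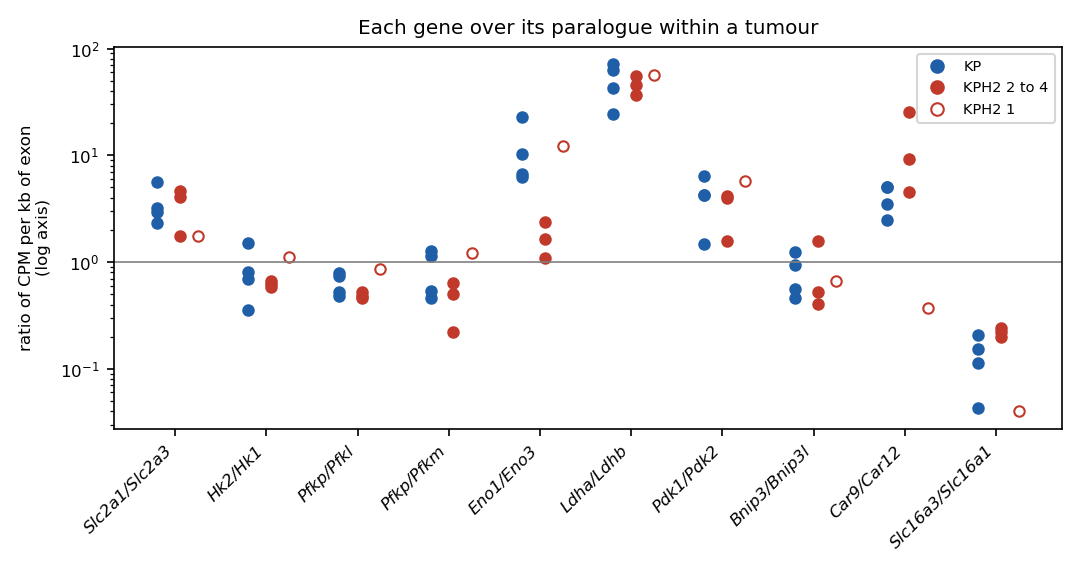
Ratio of a gene to its paralogue within a tumour for 10 pairs (9 genes, Pfkp with 2 paralogues), from CPM per kb of exon, on a log axis (KP blue, KPH2 2 to 4 red, KPH2 1 open). The groups without KPH2 1 are apart for Eno1 over Eno3 and overlap for the other 9 pairs.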

How the data were processed

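Stranded libraries depleted of ribosomal RNA were sequenced, 1 per tumour. The authors used STAR 2.4 for alignment to GRCm38 and htseq-count 0.6.1 to assign uniquely aligned reads to RefSeq genes, and the deposited counts are not normalized. The authors also deposited log2 values from the regularized log transformation (rlog) of DESeq2 1.6, over 7 and over 8 tumours, which were used only as alternatives. The main test was edgeR 4.0.16 under R 4.3.3 (TMM, minimum count 10, minimum total count 15, robust quasi-likelihood test, no covariates), with Benjamini-Hochberg adjustment over all genes tested and a threshold of 0.05. Standard errors are the log2 fold change over the square root of the F statistic. CPM used TMM factors over all 8 tumours, and mean log2 CPM a prior count of 2. Exonic lengths came from basic protein-coding transcripts of GENCODE M21 (GRCm38), and positions and upstream sequences from RefSeq for GRCm38.p6, not from the files. The scripts were tested on simulated data.

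All 10 genes are named. From the lists of other glycolysis and hypoxia-induced genes, those past the threshold or with groups that do not overlap are named, with the HIF subunits and the 8 genes most alike. Krt8, Krt18, Dsp, Pdgfra, Rn45s and the detailed values of Pfkl were chosen after their values were seen. The 10 genes and the lists were chosen with earlier results of these data known. No source used here says whether tumours were processed separately, so p-values measure only the spread between these samples. Alternatives were all 8 tumours, RLE or upper-quartile factors, no filter or a mean count of 50, each tumour left out, a muscle score as covariate, no robust estimates, DESeq2 1.42.0, and limma 3.58.1 on the deposited rlog values. Leaving out Rn45s, Lars2 and Rn7sk was added after seeing the data. A further allele that both groups share is not reported here.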

Additional observations from a re-analysis of the deposited data

Results flagged for a closer look

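Slc2a1 in KP 7, at 261 CPM, lay far from the other KP tumours: its gap to the nearest of them was 0.90 of the range of the 4 values, above the 95% critical value of Dixon's test for 4 samples. Slc2a1 in KPH2 2, at 160 CPM, stood out in the same way among the 4 KPH2 tumours, with a gap of 0.84 of the range. On log2 CPM the gaps were 0.77 and 0.72 of the range, below that critical value, so neither tumour stood out on that scale. A gap past the critical value arises by chance in about 1 of 20 groups, and 20 groups were examined (10 genes in 2 genotypes).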

How the results depend on the processing

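None of the 10 genes passed the adjusted p under any of the 18 alternatives to the fit over 7 tumours (smallest adjusted p 0.0590, for Car9 without KPH2 3). No paired analysis was possible because the 2 groups share no replicate numbers. The median log2 fold change of the 10 genes moved from 0.35 to 1.01 with the muscle score as a covariate, in a fit that can hardly tell the score and genotype apart. With a tumour left out it ran from 0.10 (without KPH2 2) to 0.63 (without KP 7), and was 0.59 without KPH2 3. With each tumour left out in turn, the log2 fold change ran from −1.06 to 0.73 for Slc2a1, from −0.50 to 0.44 for Hk2, from −0.28 to 0.36 for Pfkp, from −0.0064 to 0.57 for Pgk1 and from −0.72 to 0.61 for Bnip3. With the muscle score as a covariate Slc2a1 and Hk2 turned to 1.25 (SE 1.67) and 0.99 (SE 0.97). On the authors' rlog values with limma Hk2 turned to 5.6e-04 (7 tumours) and 0.053 (8 tumours). Car9 and Pdk1 had smaller values there, at 0.58 and 0.51 over 7 tumours, against 1.17 and 0.84 in edgeR. The cause was not tested. The number of all genes past the adjusted p was 292 over the 7 tumours, 1 with all 8, 3 with the muscle score, 55 to 349 with a tumour left out (55 without KPH2 2, 73 without KP 7, 130 without KP 6 and without KP 8, 159 without KPH2 3 and 153 without KPH2 4), 19 on the rlog values for 8 tumours and 1175 with DESeq2. Car9, at 4.97 to 24.1 CPM, rests on the fewest counts of the 10 genes, 47 to 264 per tumour.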

Other observations

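Within a tumour, the log2 ratio of 2 of the 10 genes is free of the scaling of the library. Of the 45 pairs, 7 (15.6%) had ratios that did not overlap between KP and KPH2 2 to KPH2 4, where 18.4% of all pairs of genes tested did so, so that the share among the 10 genes was no more than the background. With KPH2 1 added, 6 of the 45 (13.3%) did not overlap, against 8.22% of all pairs. The log2 ratio of Hk2 to Slc16a3, for example, was 1.99, 1.77, 2.23 and 2.26 in KP 5 to KP 8, 0.99, 0.82 and 0.91 in KPH2 2 to KPH2 4, and 1.53 in KPH2 1. The log2 ratio of Pgk1 to Pdk1 was 1.25, 1.69, 1.27 and 1.54 in KP 5 to KP 8, 0.94, 1.04 and 0.89 in KPH2 2 to KPH2 4, and 0.93 in KPH2 1. These ratios were looked at after the levels had been seen, and no test was made.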
